A study of Homo sapiens with 12 samples.

Results

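The effect of MARK2 knockdown on gene expression was examined in NCI-H1993, an established human lung adenocarcinoma line that was derived from a lymph node metastasis and carries an amplified MET gene. The comparison was taken from the labels. It sets 2 arrays of H1993 cells that had received a lentiviral MARK2 hairpin (a short RNA that triggers degradation of the MARK2 transcript) against 2 arrays of H1993 cells that had received the pLKO vector with no insert. These are 4 of the 12 arrays of the series. The matching 4 arrays of H1693, a second lung cancer line labelled in the same way as knockdown or pLKO control, were used to show where H1993 differed. H1650 arrays entered the estimate of the spread, the choice of each gene's probe set and the filter on signal, and their own changes are not described. All groups were transduced with lentivirus, and the submitters describe the lines as overexpressing MARK2. The control vector carried no hairpin, so any effect of carrying a hairpin and the effect of losing MARK2 cannot be told apart here. The sources used here do not state the hairpin's sequence, the number of hairpins or the time after transduction. The design text calls the paired arrays of each group biological replicates. The p-values rest on the spread between these replicates, pooled over the 6 groups of all lines, and not on H1993 arrays alone.

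MARK2, also called Par-1b, is a serine/threonine kinase. It phosphorylates tau, MAP2 and MAP4 within their microtubule-binding repeats, which releases these proteins from the microtubule lattice. In epithelial cells it acts at the lateral membrane with the polarity proteins, opposite the apical atypical protein kinase C complex, and LKB1 (STK11) is its best known activating kinase. The genes described below are therefore ordered from the kinase itself to microtubule proteins, then to squamous, junction and cytokine genes, and then to the remaining programmes that moved in this line.

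Total RNA was labelled and hybridised to Affymetrix PrimeView arrays, and all values are log2 RMA signals, on which a difference of 1 is a 2-fold difference in signal. The brightest probe set stands for each gene, and 16205 genes were tested with limma, with Benjamini-Hochberg adjustment over all of them and a threshold of 0.05. The 12 arrays had medians between 7.13 and 7.32, and the median background probe signal was between 3.62 and 3.75. The GAPDH 3' signal minus the 5' signal was between -0.12 and -0.06 on the H1993 arrays. On the H1650 arrays, which enter the pooled spread, it was 2.28 and 3.07 (pLKO) and 6.87 and 6.77 (knockdown), a measure of unequal RNA integrity. Without H1650 the fit called 5934 genes in H1993, against 5418 with it. Replicate arrays correlated at 0.997 (knockdown) and 0.998 (pLKO) across probe sets. Epithelial markers were high on all 4 arrays: EPCAM lay between 13.2 and 13.4, KRT7 between 14.1 and 14.2, and KRT8 between 14.6 and 14.7. The lung markers NKX2-1 (6.99 to 7.23), NAPSA (7.83 to 8.13) and SFTPB (6.67 to 6.77) were much nearer the background. Of 20 immune markers measured, 5 lay under a log2 signal of 5 on all 4 arrays, among them the pan-leukocyte gene PTPRC at 3.85 to 4.50. The brightest immune marker, the macrophage and lysosome gene CD68, lay between 11.43 and 11.57, CD14 between 8.11 and 8.86 and CD79A between 7.2 and 7.52. Of 15 fibroblast and endothelial markers, DCN, EMCN and TEK lay under it.

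MARK2 fell, and its 3 relatives did not pass the test. MARK2 read 9.17 and 9.06 on the pLKO arrays and 6.76 and 6.77 on the knockdown arrays. Both knockdown arrays lay far below both controls. The change was -2.35 (SE 0.16), which left 19.6% of the control signal. A dimmer MARK2 probe set went from 6.97 and 6.79 to 4.83 and 4.69, which left 23.0%. Among all falls past the threshold in this line, MARK2 ranked number 5. Its change was -1.27 in H1693. The comparison was chosen with the strong fall of MARK2 known, so these values are a description and carry no test. MARK1 read 7.03 and 7.09 in the controls and 6.97 and 7.07 after knockdown, a change of -0.04 (adjusted p = 0.88) whose sign turned under 2 of the alternatives. MARK3 read 10.32 and 10.42, then 10.23 and 10.24. Its change of -0.13 (adjusted p = 0.22) became -0.20 and passed the test (adjusted p = 0.0364) when arrays were centred on their medians. MARK4 read 6.40 and 6.36, then 6.39 and 6.46, with groups that overlapped and a change of 0.04 (adjusted p = 0.82) whose sign turned under quantile normalisation and median centring.

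**Figure D1:**
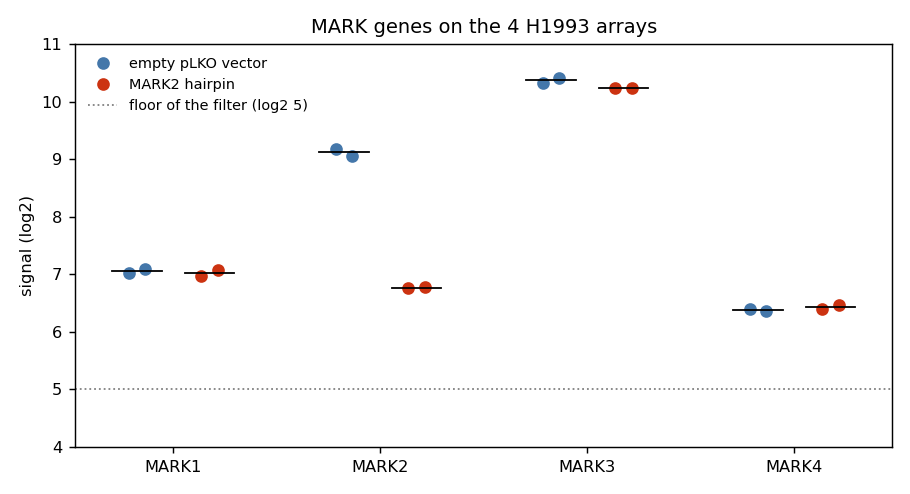
Signal (log2, y axis) of the 4 MARK genes on the H1993 arrays, with 1 point per array, blue for the empty pLKO vector and red for the MARK2 hairpin; short bars are group means and the dotted line is the filter's floor of 5. MARK2 drops from 9.17 and 9.06 to 6.76 and 6.77, while the points of MARK1, MARK3 and MARK4 lie close together.

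Of the 21 tested genes of the MARK family, its activating kinases and its partners, 7 rose and 2 fell. The background over all 16205 genes was 18.9% higher and 14.5% lower. The 2 falls were those of MELK and of MARK2 itself, whose fall was known when the comparison was chosen. The median change of the list was 0.08, and that of all tested genes was 0.02. TAOK2, of the kinase family that includes a known activator of MARK kinases, read 8.01 and 8.04 in the controls and 8.84 and 8.87 after knockdown, a rise of 0.83 (adjusted p = 0.000147). This was the largest change of its 5 probe sets at the floor, and the smallest was 0.00. SIK3, an LKB1-activated kinase, rose by 0.79 and TAOK3 by 0.45. MELK, a related kinase of dividing cells, fell by 0.45. The count of 7 rises is small and unsteady: it was 4 under quantile normalisation and 3 under median centring, and 4 without knockdown replicate 2, without pLKO replicate 1 or without pLKO replicate 2.

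MARK2 knockdown in H1993 was followed by changes in 33.4% of the genes tested. In all, 3064 genes (18.9%) were higher and 2354 (14.5%) were lower after knockdown. For each of these 5418 genes both knockdown arrays lay on one side of both controls, so such separation adds no support to a gene past the threshold. Over all tested genes 34.7% had both knockdown arrays above both controls and 29% had both below. The split of calls depends on the scaling of arrays: 56.6% of calls were rises as deposited, 49% under quantile normalisation and 43.5% under median centring. The median change of all tested genes was 0.017, -0.029 and -0.055 in the same order, so list medians near 0 shift sign with it. Large changes were mostly rises. At least 2-fold changes numbered 380 rises against 99 falls, and at least 4-fold changes 28 against 6.

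**Figure D2:**
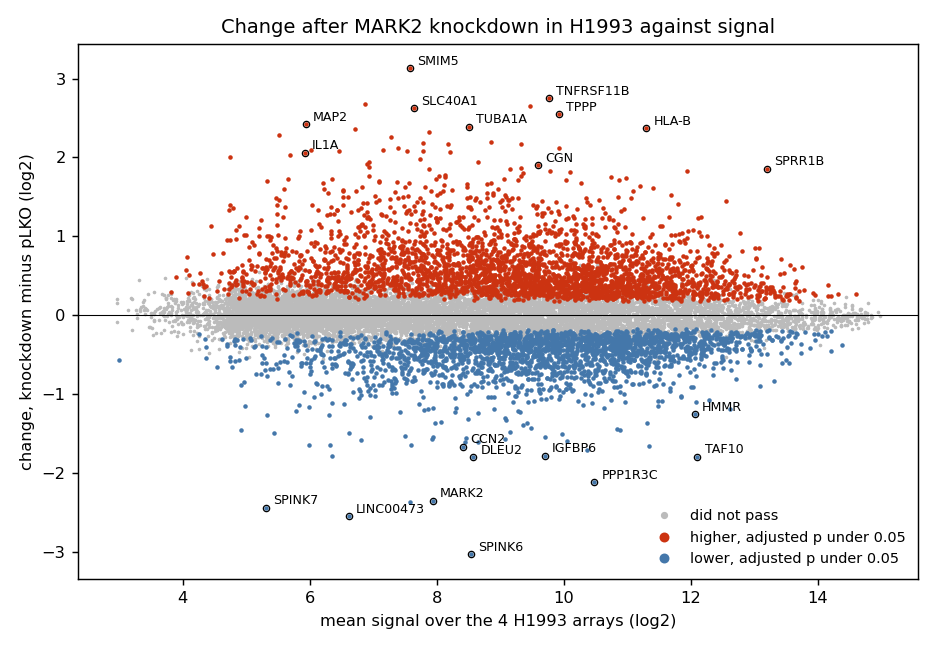
Change after MARK2 knockdown in H1993 (log2 knockdown minus pLKO, y axis) against the mean log2 signal (x axis), with 1 point per tested gene and genes past the threshold coloured. Rises reach 3.13 and falls -3.03, with 380 rises and 99 falls of at least 2-fold.

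The largest rises came from genes of different functions, and their size is what chose them. SMIM5, a small integral membrane protein gene, read 5.50 and 6.54 in the controls and 9.15 on both knockdown arrays. The controls differed by more than 1 unit but stayed well below the knockdown arrays. Its change was 3.13 (SE 0.26, adjusted p = 2.24e-05), although its other probe sets ranged down to 0.23. TNFRSF11B encodes osteoprotegerin, a decoy receptor for RANKL and TRAIL. It went from 8.24 and 8.53 to 11.12 and 11.16, a rise of 2.75 (SE 0.11, adjusted p = 4.53e-07). SLC40A1, the iron exporter ferroportin, went from 6.34 and 6.33 to 8.94 and 8.96, and its probe sets gave 2.62 to 2.88. PGM2L1, a glucose 1,6-bisphosphate synthase, went from 8.21 and 8.07 to 10.80 and 10.79, with probe sets between 0.96 and 2.65. TMPRSS11E, an epithelial transmembrane serine protease, went from 6.53 and 6.90 to 8.94 and 9.14, a rise of 2.32 (adjusted p = 2.05e-06). In each of these genes the knockdown arrays lay within 0.3 of each other and far above both controls. HEPACAM2 rose by 2.28, STEAP4, a metalloreductase, by 2.19, and CYP1A1, a target of the aryl hydrocarbon receptor, by 2.18. NOL4L rose by 2.68 on 1 probe set while its other probe set gave -0.03, and SNN rose by 2.36 with probe sets down to 0.47.

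The deepest falls were shared by a pair of protease inhibitors, a long noncoding RNA and genes of glycogen and growth factor control. SPINK6, a Kazal-type inhibitor of kallikrein proteases, read 10.06 and 10.05 in the controls and 7.13 and 6.91 after knockdown. Its change was -3.03 (SE 0.10, adjusted p = 2.42e-07), larger than that of MARK2. SPINK7, its neighbour in the family, went from 6.47 and 6.58 to 4.15 and 4.02, a change of -2.44, with both knockdown arrays under the floor of 5. LINC00473, a noncoding RNA known as a target of CREB, went from 7.83 and 7.95 to 5.23 and 5.44, a change of -2.55 (adjusted p = 4.53e-07). PPP1R3C, which targets protein phosphatase 1 to glycogen, went from 11.50 and 11.59 to 9.39 and 9.45, a change of -2.12. In all 4 genes the groups were separated by more than 2 units. IGFBP6, an IGF-binding protein, went from 10.55 and 10.64 to 8.72 and 8.90. CCN2, known as CTGF and a target of YAP, went from 9.24 and 9.26 to 7.74 and 7.42, a change of -1.67. TAF10, a TFIID and SAGA subunit, went from 12.98 and 13.03 to 11.18 and 11.24, a change of -1.79. The host noncoding RNA DLEU2 went from 9.47 and 9.48 to 7.73 and 7.63. UTP18, a nucleolar ribosome assembly factor, fell by 1.65, ESX1 by 1.78 and MIG7 by 1.71. ALPP fell by 1.65, and a near-identical gene copy may share its probes.

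Microtubule lattice proteins were led by 3 large rises. TPPP, which bundles microtubules and promotes tubulin polymerisation, read 8.57 and 8.72 in the controls and 11.15 and 11.24 after knockdown. The change was 2.55 (SE 0.08, adjusted p = 2.42e-07). MAP2, one of the substrates of MARK2 named above, went from 4.80 and 4.66 to 7.19 and 7.11. Its controls lay under the floor and its change of 2.42 is the largest of its probe sets, which ranged from 0.61. TPPP3 went from 6.0 and 5.94 to 6.81 and 7.19, a rise of 1.03. The other named substrates did not pass the test: MAPT, which encodes tau, changed by -0.03 and MAP4 by 0.15. Of 32 lattice proteins tested, 9 rose (28.1%) and 4 fell (12.5%), with a median of 0.11. CAMSAP2, which caps microtubule minus ends, rose by 0.56, EML1 by 0.50 and MAP7D1 by 0.45. MAP9 rose by 0.67, while another of its probe sets gave -0.17. GTSE1 and PRC1, both of which act on the mitotic spindle, fell by 0.74 and 0.52, and EML2 fell by 0.57.

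Among the tubulin genes themselves, 4 alpha- and beta-tubulin genes led the rises. TUBA1A, an alpha-tubulin best known from neurons, read 7.35 and 7.27 in the controls and 9.71 and 9.68 after knockdown, a rise of 2.39 (SE 0.12, adjusted p = 1.10e-06). TUBB2A, a beta-tubulin, went from 10.29 and 10.31 to 11.95 and 11.80, a rise of 1.58 (adjusted p = 8.06e-07). TUBB3, the class III beta-tubulin, went from 12.58 and 12.61 to 13.44 on both knockdown arrays, a rise of 0.85. TUBB6 went from 7.87 and 7.90 to 8.84 and 8.77, although another of its probe sets gave 0.00. In all 4 genes both knockdown arrays lay above both controls, as for every rise past the threshold. The tubulin list as a whole also holds enzymes that modify tubulin. It gave 5 rises and 3 falls among 31 tested genes (16.1% and 9.68%), below the background in both directions. Its median was -0.02. TUBA1B, TUBA8 and TUBB2B had no probe set with 1 gene symbol and were not tested. TUBG2, a gamma-tubulin gene, rose by 0.29, while TUBG1 fell by 0.31 and the glutamylase TTLL4 by 0.66. The remaining fall was that of the enzyme gene ATAT1, at -0.32, with another probe set at 0.36. No alpha- or beta-tubulin gene fell past the threshold. Tubulin isotypes are near-identical in sequence, so signal may be shared between their probe sets. Without knockdown replicate 1 or without pLKO replicate 2 the count of falls was 1.

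Plus-end and severing proteins moved in both directions, with 12 rises and 12 falls among 39 tested genes (30.8% each) and a median of -0.04. FIGN, a microtubule-severing ATPase, went from 7.05 and 6.91 to 7.94 and 7.91, a rise of 0.95 (adjusted p = 1.20e-05). CLIP4, a CAP-Gly protein, went from 8.17 and 8.20 to 9.11 and 9.12, a rise of 0.93. Both genes had tight replicates and separated groups. NAV1 rose by 0.88, CLIP2 by 0.81, MAPRE2 by 0.68, CLIP1 by 0.58, MAPRE3 by 0.39 and the severing enzyme SPAST by 0.34. The falls were smaller: GAS2L3 fell by 0.52, APC by 0.45, TACC3 by 0.42, CKAP2 by 0.40, KIF2C by 0.28 and CLASP2 by 0.24. Their number is not firm, since it was 5 without knockdown replicate 2, 7 without pLKO replicate 1 and 4 without pLKO replicate 2. Among 61 kinesin and dynein genes, 16 rose (26.2%) and 15 fell (24.6%), with a median of -0.01. The 6 largest changes were falls. Of these, KIF14, KIF23, KIF15 and KIF20A are kinesins of mitosis and cytokinesis: KIF14 went from 9.68 and 9.50 to 8.84 and 8.67 (-0.83), KIF23 fell by 0.73, KIF15 by 0.65 and KIF20A by 0.57. The others, KIF27 and KIF9, which are known from cilia, fell by 0.68 and 0.59. Members of the microtubule lists beyond the leading 6 of each were chosen after their values were seen, and the same holds for the other lists below.

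A set of squamous differentiation genes rose in H1993, several of them by more than 1 unit. These genes build the cornified envelope, the cross-linked protein shell of surface squamous cells, and are induced in airway epithelium that turns squamous. IVL, which encodes the envelope scaffold involucrin, read 6.49 and 6.17 in the controls and 8.43 and 8.47 after knockdown, a rise of 2.12 (adjusted p = 1.43e-06). SPRR1B, an envelope precursor, went from 12.30 and 12.24 to 14.14 and 14.11, a rise of 1.85 (adjusted p = 2.98e-07). SPRR1A went from 9.87 on both control arrays to 11.58 and 11.67, a rise of 1.76. SPRR2D went from 6.22 and 6.26 to 7.90 and 7.97, a rise of 1.69. S100A9, a calcium-binding alarmin, went from 6.12 and 6.27 to 7.64 and 7.59, a rise of 1.42, and its partner S100A8 rose by 1.16. In each of these genes the groups were separated by more than 1 unit, and replicates lay within 0.4 of each other. The SPRR genes are near-identical, so their probe sets may share signal.

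Of the 70 squamous genes tested, out of 77 measured, 21 rose (30%) and 4 fell (5.71%), and the median was 0.09. Rises included genes outside the SPRR cluster: PPL (periplakin) rose by 1.34, SLPI by 0.90, LYPD3 by 0.52, SERPINB4 by 0.48 and EVPL (envoplakin) by 0.36. The transcription factors ELF3, GRHL1, SOX2 and OVOL1 rose by 0.48, 0.49, 0.44 and 0.43. EHF went from 11.35 and 11.39 to 12.34 and 12.26, a rise of 0.93. The rise was 0.88 to 0.97 when 1 array was left out, but its call was lost without any 1 of the 4 arrays. Its SE of 0.24 pools the spread over all lines, and EHF read 4.82 and 3.88 on the H1693 pLKO arrays. MAL fell by 0.70, KRT80 by 0.67, S100A2 by 0.33 and CNFN by 0.32, so the list did not move as a unit. Without pLKO replicate 2 the count of falls was 2. Outside the list, SULT2B1, the cholesterol sulfotransferase of keratinising epithelium, went from 8.22 and 8.28 to 10.38 and 10.45, a rise of 2.17. Of the 22 SPINK and kallikrein genes tested, 3 rose and 3 fell (13.6% each), and the list's median of 0.05 turned negative under quantile normalisation and under median centring. The falls were those of SPINK6 and SPINK7, given above, and of SPINK4, which changed by -0.56 and lost its call without knockdown replicate 1 or pLKO replicate 2.

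Many junction genes rose in H1993, and few fell. Tight junctions seal the space between epithelial cells near the apex, and adherens junctions and desmosomes hold neighbouring cells together through cadherins. CGN encodes cingulin, a cytoplasmic tight junction protein that also binds microtubules. It read 8.47 and 8.81 in the controls and 10.55 and 10.53 after knockdown, a rise of 1.90 (adjusted p = 3.45e-06). Its relative CGNL1 went from 6.23 and 6.46 to 7.39 and 7.33, a rise of 1.01, although another probe set gave -0.05. LSR, the tricellular junction protein angulin-1, went from 11.08 and 11.22 to 12.01 and 12.08, a rise of 0.89. TJP3 rose by 0.79, CLDN23 by 0.77, CXADR by 0.72, MARVELD2 by 0.50, CLDN1 by 0.49, OCLN by 0.44 and CLDN4 by 0.41. The scaffold TJP1 (ZO-1) fell by 0.42 and AMOTL2 by 0.40. Of 31 tight junction genes tested, 13 rose (41.9%) and 2 fell (6.45%), with a median of 0.25. The 2 falls became 1 without knockdown replicate 1 and 0 without knockdown replicate 2, and 4 under median centring.

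Adherens junction, desmosome and gap junction genes moved one way, with 16 rises (44.4%) and 0 falls by limma among 36 tested genes (2 at an unadjusted p under 0.05) and a median of 0.25. Under quantile normalisation, under median centring and with the mean of all probe sets, 2 falls passed. CDH1, which encodes E-cadherin, read 12.68 and 12.63 in the controls and 13.56 and 13.45 after knockdown, a rise of 0.85. CDH3, the P-cadherin gene, rose by 0.59 and JUP (plakoglobin) by 0.56. The desmosomal cadherin DSC2 went from 11.39 and 11.53 to 12.52 and 12.36, a rise of 0.98, and DSP (desmoplakin), PKP2 and DSG2 rose by 0.41, 0.33 and 0.30. PPL, which links desmosomes to keratin filaments, went from 10.22 and 10.35 to 11.65 and 11.60. NECTIN2 went from 6.97 and 6.82 to 8.22 and 8.24, a rise of 1.34, and NECTIN4 from 5.91 and 6.39 to 8.40 and 8.42, a rise of 2.26 with probe sets down to 0.32. GJA1, the connexin 43 gene, went from 5.24 and 5.43 to 6.73 and 6.72, and another of its probe sets gave -0.11. No knockdown array overlapped a control array in these genes, as for every gene past the threshold.

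Polarity and epithelial identity genes also rose more often than they fell. Of 31 polarity genes, 9 rose (29%) and 2 fell (6.45%), with a median of 0.10. PARD6B, the PAR6 adaptor of the apical complex, went from 8.61 and 8.37 to 9.78 and 9.27, a rise of 1.03 (adjusted p = 0.00177), and its knockdown arrays differed by 0.5. LLGL2, a basolateral Lgl protein, rose by 0.56, LIN7B by 0.55 and PATJ by 0.50. CDC42, the GTPase that activates PAR6, fell by 0.58. The falls numbered 1 without knockdown replicate 2 or without pLKO replicate 2, and 6 under median centring. Of 28 genes of simple epithelial identity, 16 rose (57.1%) and 0 fell by limma (2 at an unadjusted p under 0.05), with a median of 0.26. Up to 2 fell under other settings. PRSS8, a membrane-anchored serine protease, went from 8.84 and 8.94 to 10.11 and 10.45. Its inhibitor SPINT1 went from 11.66 on both arrays to 12.64 and 12.70, and ST14 (matriptase) rose by 0.76. KRT19 rose by 0.27.

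**Figure D3:**
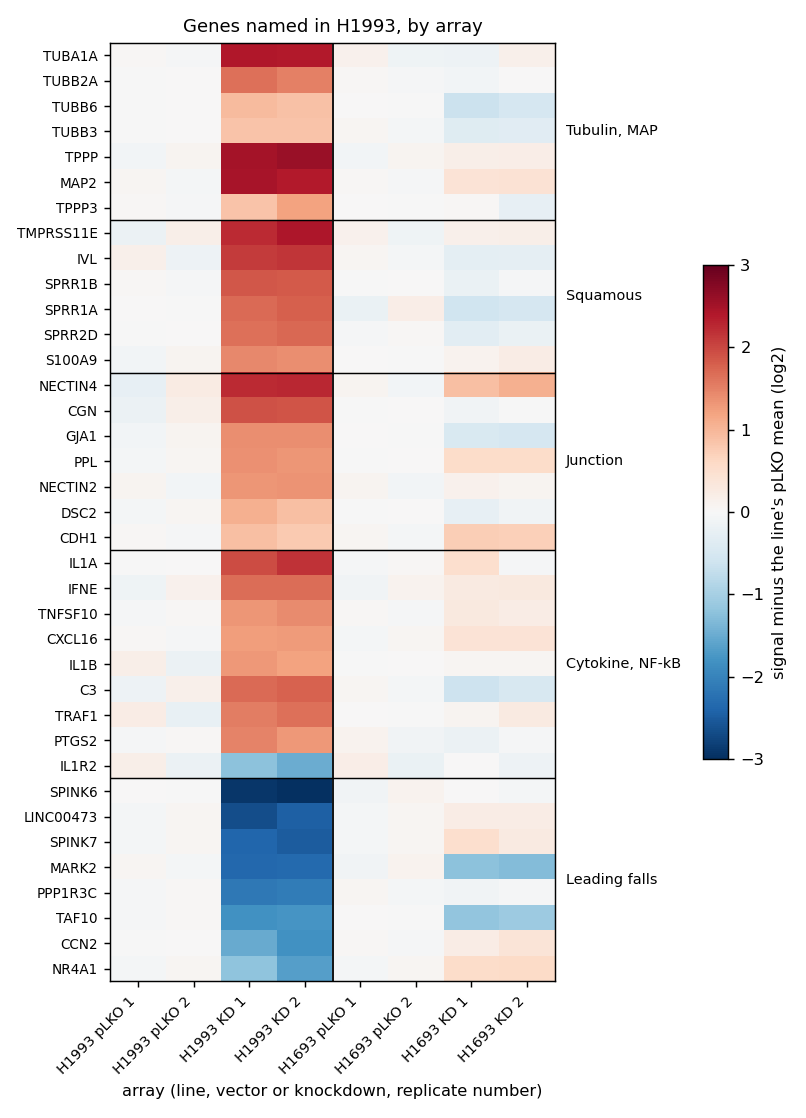
Signal of selected genes (rows) on the 4 H1993 and 4 H1693 arrays (columns), as the log2 difference from the mean of the same line's pLKO arrays, red above and blue below it. Both H1993 knockdown columns are red for TUBA1A, IVL, CGN and IL1A and blue for SPINK6 and SPINK7, while the H1693 knockdown columns are pale for most of these genes.

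The share of cytokine genes that rose was close to the background: 10 of 56 tested rose (17.9%, background 18.9%) and 2 fell (3.57%). The median of 0.04 turned negative under quantile normalisation and under median centring, as that of all genes did. A few members moved strongly. IL1A, the interleukin 1 alpha gene, read 4.88 and 4.90 in the controls, under the floor of 5, and 6.83 and 7.06 after knockdown, a rise of 2.06 (adjusted p = 8.49e-06). IL1B went from 6.75 and 6.40 to 7.87 and 7.79, a rise of 1.26 (SE 0.21, adjusted p = 0.00124). IFNE, an epithelial type I interferon gene, went from 5.23 and 5.50 to 7.04 on both knockdown arrays, a rise of 1.68. TNFSF10, which encodes the death ligand TRAIL, went from 4.07 and 4.14 to 5.42 and 5.51. CXCL16 went from 9.05 and 8.99 to 10.28 and 10.29. Control and knockdown arrays did not overlap in any of these 5 genes, as for every gene past the threshold. CXCL8 rose by 0.74, IL15 by 0.61, CXCL2 by 0.55 and CXCL1 by 0.48, while CCL26 and CXCL3 fell by 0.64 and 0.59. The 2 falls numbered 0 without knockdown replicate 1 and 1 without pLKO replicate 2.

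In the NF-kB list, 20 of 38 tested genes rose (52.6%) and 2 fell (5.26%), with a median of 0.31. It holds NF-kB subunits, their inhibitors and known target genes. The subunit RELB went from 8.89 and 8.92 to 9.88 and 9.95, a rise of 1.01, NFKB2 rose by 0.88 and the inhibitor NFKBIA by 0.64. The complement gene C3 went from 8.03 and 8.34 to 9.89 and 9.95, a rise of 1.73. PTGS2, the inducible cyclooxygenase, went from 8.79 and 8.85 to 10.31 and 10.12, a rise of 1.40. LCN2, an iron-sequestering secreted protein, rose by 1.29 and PLAU by 0.95. TRAF1 rose by 1.59 with probe sets from 0.55. IL1R2, the decoy receptor for interleukin 1, moved the other way: it read 8.91 and 8.57 in the controls and 7.51 and 7.26 after knockdown, a change of -1.36 (adjusted p = 0.000138). IL1RL1 fell by 0.89. IL1RAP, the shared accessory chain, gave 1.21 on 1 probe set and -0.33 on another.

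Interferon-stimulated genes had the highest median change of the 33 lists, 0.59: 44 of 59 rose (74.6%) and 1 fell. These genes are induced by interferons, in many cases through a promoter element called the ISRE. IFI44L read 7.22 and 7.38 in the controls and 9.01 and 8.88 after knockdown, a rise of 1.65. IFI44 went from 5.78 and 6.22 to 7.86 and 7.90, a rise of 1.88. MX1, a dynamin-like antiviral GTPase, went from 4.62 and 4.83 to 6.23 and 6.19, a rise of 1.48. All knockdown arrays lay more than 1 unit above the controls. TRANK1 rose by 2.17, NLRC5, a transactivator of MHC class I genes, by 1.63, SAMD9L by 1.52, IRF9 by 1.39 and PSMB9 by 1.38. HLA-B went from 10.13 and 10.10 to 12.45 and 12.53, a rise of 2.37, although its probe sets ranged from 0.00 and HLA genes may share probes. OAS1 went from 8.61 on both arrays to 8.08 on both, the single fall. Without pLKO replicate 2 there were 2 falls.

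The promoters of IFI44L, IFI44 and MX1, chosen after their values were seen, are shown because these 3 genes rose together and carry the element. The sequences are from RefSeq on GRCh38.p14, 5' to 3' on the gene's strand, and capitals mark a match to the ISRE core on either strand, searched as GAAA, then any 2 bases, then GAAA. The windows are IFI44L at chr1:78620320-78620439, IFI44 at chr1:78649669-78649788 and MX1 at chr21:41431800-41431919, all on the plus strand.
IFI44L: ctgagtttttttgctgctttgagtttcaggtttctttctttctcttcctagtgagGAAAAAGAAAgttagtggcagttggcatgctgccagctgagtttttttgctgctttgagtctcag
IFI44: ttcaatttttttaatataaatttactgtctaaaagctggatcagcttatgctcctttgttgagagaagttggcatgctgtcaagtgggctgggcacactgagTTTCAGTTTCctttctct
MX1: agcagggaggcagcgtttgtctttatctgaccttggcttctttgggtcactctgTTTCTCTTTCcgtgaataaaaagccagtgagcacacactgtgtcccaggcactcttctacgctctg
In IFI44L the element reads in the gene's direction, and in IFI44 and MX1 it lies on the opposite strand. Of the 59 genes, 47 matched a RefSeq promoter entry and 31 of these held the motif, while 4.38% of all 27305 genes with a promoter entry of the same length did. Among the matched genes that rose, 25 of 38 held it, and 6 of the 9 others did. A match is a description of the letters and not evidence of a bound site.

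Cell division genes fell nearly without exception. The mitosis and G2/M list held 51 genes, of which 48 fell (94.1%) and 0 rose by limma, also at an unadjusted p under 0.05. The median was -0.55, and in bulk RNA fewer dividing cells and less RNA per cell cannot be told apart. HMMR, a spindle protein, read 12.73 and 12.66 in the controls and 11.51 and 11.36 after knockdown, a change of -1.26 (adjusted p = 6.47e-06). ESPL1, the separase that cleaves cohesin, went from 10.92 and 11.10 to 9.88 and 9.91, a change of -1.12. TOP2A went from 11.96 and 12.11 to 10.88 and 11.01, a change of -1.09. FOXM1, the transcription factor of G2/M genes, went from 10.53 and 10.59 to 9.65 and 9.63, a change of -0.92. The 2 groups were separated by more than 0.8 units in each of the 4 genes. CDC20 fell by 0.91 while another of its probe sets gave 0.01.

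Many promoters of such genes carry the CHR element, through which the DREAM and MuvB complexes act in the cell cycle. The promoters of HMMR, TOP2A and ESPL1, the 3 deepest falls of the list, are shown for this reason, with matches to TTTGAA on either strand in capitals. They are from RefSeq on GRCh38.p14, 5' to 3' on the gene's strand: HMMR at chr5:163460512-163460631 (plus), TOP2A at chr17:40417985-40418104 (minus) and ESPL1 at chr12:53268179-53268298 (plus).
HMMR: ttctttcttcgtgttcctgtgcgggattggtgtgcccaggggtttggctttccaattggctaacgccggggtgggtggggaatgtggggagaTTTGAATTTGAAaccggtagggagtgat
TOP2A: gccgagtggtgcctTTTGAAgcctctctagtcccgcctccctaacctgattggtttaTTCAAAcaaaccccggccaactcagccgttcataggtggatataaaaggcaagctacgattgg
ESPL1: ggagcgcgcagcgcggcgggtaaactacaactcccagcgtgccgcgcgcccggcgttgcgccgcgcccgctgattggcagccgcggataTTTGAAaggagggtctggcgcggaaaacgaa
HMMR has 2 matches side by side, TOP2A has 2 in opposite directions and ESPL1 has 1. Of the 51 genes, 42 matched a promoter entry and 27 of these held the motif, all 27 among the 40 matched genes that fell and 0 of the 2 others. Of all 27305 genes with a promoter entry, 18.2% held it, so these letters are common.

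Replication, repair and histone genes also fell, with exceptions. The replication and G1/S list held 50 tested genes, of which 27 fell (54%) and 1 rose, with a median of -0.29. MCM5, a subunit of the replicative helicase, went from 8.39 and 8.89 to 7.77 and 7.73, a change of -0.88, and its controls differed by 0.5. RPA1, the single-strand binding protein, went from 12.36 and 12.44 to 11.71 and 11.73. CDC25A, a phosphatase that drives G1/S, was the rise: it went from 9.99 and 10.10 to 10.68 and 10.64 (0.62). The list for recombination repair and the Fanconi anaemia pathway held 28 genes, of which 13 fell (46.4%) and 1 rose, with a median of -0.26, and the rise was lost without pLKO replicate 1. The nuclease subunit EME1 went from 10.32 and 10.31 to 9.25 and 9.31, a change of -1.04. FANCC went from 8.40 and 8.46 to 7.63 and 7.53, and FANCG fell by 0.69. Of 46 replication-dependent histone genes, 19 fell (41.3%) and 2 rose, with a median of -0.27. H2AC16 went from 8.98 and 8.57 to 6.45 and 6.34, a change of -2.37 (adjusted p = 1.86e-05). H2BC11 went from 9.24 and 9.25 to 7.52 and 7.76, and H3C3 from 7.13 and 7.14 to 5.69 and 5.31. Groups did not overlap in these genes, as for every gene past the threshold. The histone genes are near-identical copies, so probe sets may share signal. Their transcripts lack poly(A) tails, and how well the labelling captured them was not tested.

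Immediate early and receptor signalling genes moved in both directions. Of 48 genes of MAPK feedback, AP-1 and the immediate early response, 9 rose (18.8%) and 14 fell (29.2%), with a median of -0.03. The orphan nuclear receptors NR4A1, NR4A2 and NR4A3, which like LINC00473 are known CREB targets, all fell. NR4A1 went from 10.13 and 10.26 to 8.99 and 8.54, a change of -1.43, NR4A2 from 8.88 and 9.07 to 7.98 and 7.97, and NR4A3 fell by 0.94. The ETS factors ETV4 and ETV5 fell by 1.02 and 0.79 and JUN by 0.86. The stress kinase phosphatase DUSP10 went from 8.34 and 8.45 to 10.18 and 10.34, a rise of 1.87, and the feedback inhibitors SPRY4 and SPRED1 rose by 0.87 and 0.76. Of 54 EGF-family ligands and receptor tyrosine kinases, 23 rose (42.6%) and 7 fell (13%), with a median of 0.24; without knockdown replicate 1 the count of rises was 13. MERTK went from 5.65 and 5.83 to 6.95 and 7.09, and ERBB2 from 9.99 and 10.01 to 10.89 and 10.90. EGFR went from 9.96 and 10.08 to 9.27 and 9.28, a change of -0.75, and the ligands NRG1 and HBEGF fell by 0.74 and 0.60.

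Members of the transcription machinery, ribosome assembly and sterol lists fell. Of 23 TFIID and SAGA subunits, 9 fell (39.1%) and 1 rose, with a median of -0.15. Besides TAF10, TAF12 went from 10.42 and 10.49 to 9.36 and 9.42, TAF4B fell by 0.88 and TBP by 0.51, and TADA2B rose by 0.62. Of 52 ribosome biogenesis genes, 28 fell (53.8%) and 0 rose by limma, also at an unadjusted p under 0.05. The median was -0.26, and without pLKO replicate 2 the falls numbered 16. The RNA polymerase I subunits POLR1E and POLR1A fell by 0.84 and 0.77. Of 37 genes of cholesterol and fatty acid metabolism, 12 fell (32.4%) and 6 rose (16.2%), with a median of -0.12. The cholesterol exporters ABCG1 and ABCA1, targets of LXR, went from 8.89 and 8.92 to 7.60 and 7.75 and from 10.61 on both arrays to 9.77 and 9.52. The sterol carrier STARD4 fell by 0.87 and the desaturase SCD by 0.61. The 6 rises numbered 2 without knockdown replicate 1 and 3 without either pLKO replicate.

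Stress and metabolic lists were mixed. Of 30 p53 target genes, 14 rose (46.7%) and 2 fell (6.67%), with a median of 0.17. TP53INP1 rose by 1.72 with probe sets from 0.09, SESN1 went from 7.72 and 7.67 to 8.67 and 8.77, and CDKN1A, the p21 gene, went from 11.50 and 11.59 to 12.17 and 12.18. The 2 falls were in TIGAR, at -1.18 with another probe set at 0.19, and MDM2, the p53 ligase, at -0.65 with a probe set at 0.08. Of the 30 genes, 10 had a negative change. Falls numbered 5 under quantile normalisation and under median centring. Of 44 genes of hypoxia, glycolysis and glycogen, 12 rose (27.3%) and 7 fell (15.9%), with a median of -0.03. The carbonic anhydrases moved apart, with changes of 1.76 for CA13 and -1.30 for CA2. The falls numbered 3 without knockdown replicate 2, 4 without pLKO replicate 2 and 12 under median centring. Of 40 NRF2, glutathione and redox genes, 12 rose (30%) and 5 fell (12.5%), led by AKR1C3 at 1.08 and TXNIP at 1.03. The median was 0.01 and turned negative under median centring. Their falls numbered 1 to 3 without any 1 of the 4 arrays. Of 39 genes of the unfolded protein and ATF4 responses, 5 rose (12.8%) and 8 fell (20.5%), with a median of -0.03. The chaperone DNAJB9 rose by 0.74 and the transsulfuration enzyme CTH fell by 1.03. Of 51 genes of autophagy, lysosome and secretory vesicles, 21 rose (41.2%) and 7 fell (13.7%), with a median of 0.19. SYTL2, an effector of RAB27, went from 10.40 and 10.37 to 12.13 and 11.91, ULK1 rose by 1.11 and the cholesterol transporter NPC2 fell by 0.92. The falls numbered 4 without knockdown replicate 2 or without pLKO replicate 2.

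Matrix and lineage genes closed the set. Of 43 matrix and integrin genes, 17 rose (39.5%) and 3 fell (6.98%), with a median of 0.26. COL6A1 went from 10.34 and 10.31 to 11.91 and 11.70, the collagenase MMP1 from 5.72 and 5.58 to 6.94 and 7.10, and ITGA1 from 7.19 and 7.29 to 6.35 and 6.26. Of 38 genes of epithelial-mesenchymal transition, 9 rose (23.7%) and 10 fell (26.3%). Their median of 0.04 turned negative under quantile normalisation and under median centring. S100A4 rose by 1.07 and MYL9 by 1.10, while the YAP target CCN1 fell by 0.79. Of 32 lung lineage genes tested, 7 rose (21.9%) and 2 fell (6.25%), with a median of 0.04 that turned negative under the same scalings. CEBPA rose by 0.94 and LIPH by 1.47. The rises numbered 4 without pLKO replicate 2, and the falls 1 without knockdown replicate 1 or either pLKO replicate. Of 15 immune markers tested, 3 rose (20%), close to the background of 18.9%. By limma 0 fell, also at an unadjusted p under 0.05, and the median was 0.09. The rises were large: KLRC3, a natural killer receptor gene, went from 8.87 and 8.88 to 10.75 and 10.65, KLRC1 rose by 1.25, and LYZ, the lysozyme gene of myeloid and glandular cells, went from 4.43 and 4.53 to 6.35 and 6.0. LYZ lay under the floor of 5 on both control arrays and on the H1693 arrays. The KLRC genes are near-identical copies. Other natural killer genes did not pass the test: NKG7 read 6.91 and 6.79, then 6.90 and 6.71, and GNLY read 7.06 and 6.90, then 6.85 and 6.82. Of 13 fibroblast and endothelial markers tested, 2 rose (15.4%) and 0 fell by the same counts, with a median of 0.05 that turned negative under median centring. LUM went from 3.45 and 4.03 to 5.81 and 5.67, and COL1A1 rose by 0.59. The call of COL1A1 was lost without knockdown replicate 2 or pLKO replicate 1. The summed linear signal of the immune markers was 4659 and 4872 in the controls and 6640 and 6241 after knockdown, beside the rises of the interferon, NF-kB and cytokine genes. KLRC3 and KLRC1, whose probes may share signal, carried most of this increase, and CD68, the brightest of the sum, was flat. That of the fibroblast and endothelial markers was 1023 and 958.1, then 1191 and 1226, beside the rises of matrix genes. The part of such cells in the results was not tested.

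**Figure D4:**
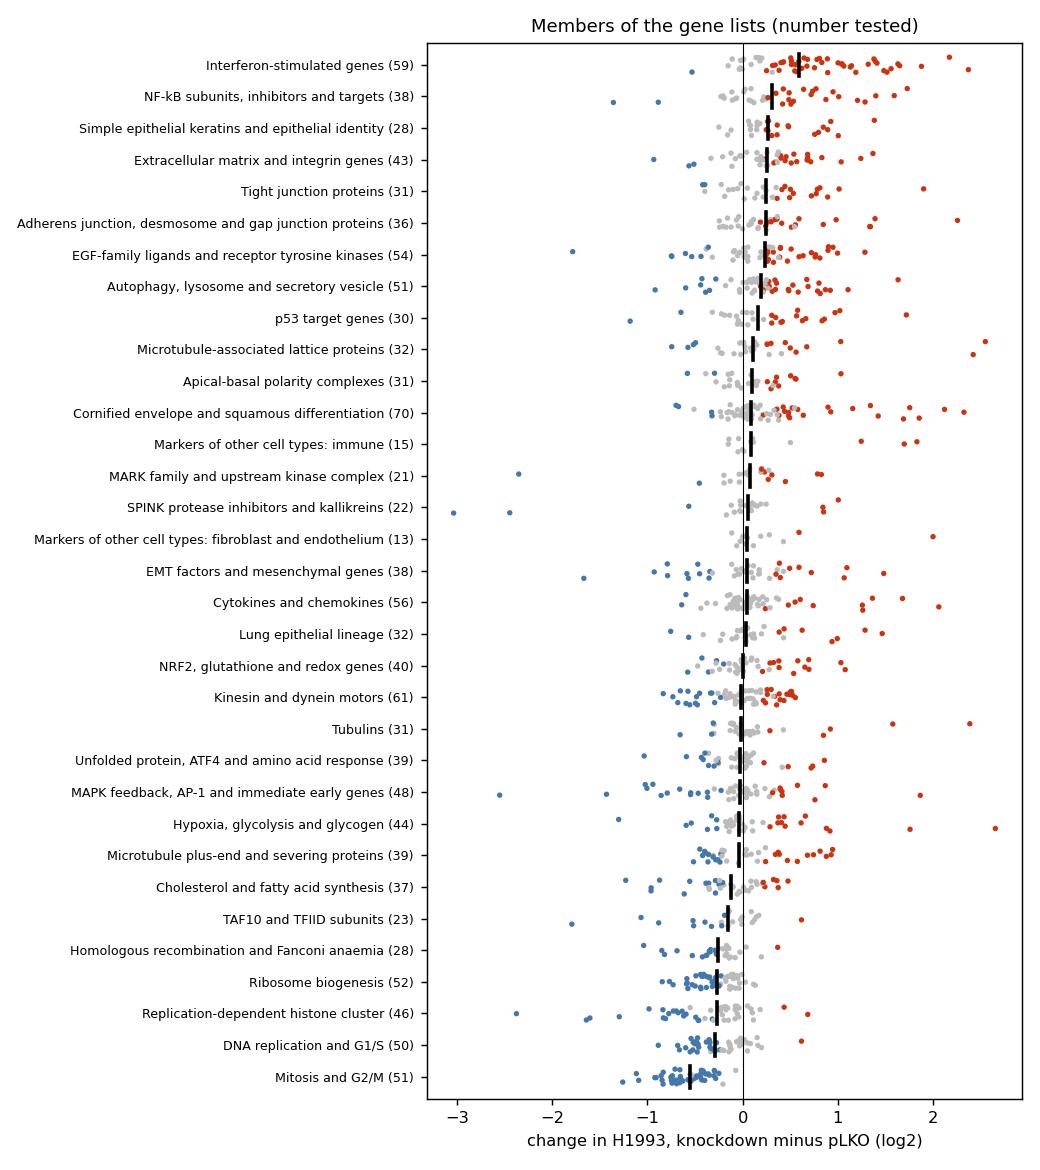
Change after MARK2 knockdown in H1993 (log2, x axis) for each tested member of the 33 gene lists (y axis, number tested in brackets), red where higher and blue where lower at an adjusted p under 0.05, grey otherwise, with the list's median as a black bar. The lists run from interferon-stimulated genes, with a median of 0.59, down to mitosis genes, with a median of -0.55.

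The values above are those of a gene's brightest probe set, and others of the same gene did not always follow. Besides the genes already marked, a probe set at the floor with the opposite sign was present for EGFR (0.31), NRG1 (0.15), ERBB2 (-0.16), OVOL1 (-0.13), TACC3 (0.06), NPC2 (0.04), RPA1 (0.03) and CDC42 (0.01). DST, which is flagged below and rose by 0.74, had one at -0.34. The smallest value among the probe sets was near 0 for SPAST, PATJ, SOX2, CXCL1, TUBG2, NR4A3, KIF9 and EML2. Weaker probe sets of the same sign were found for ESPL1 (-0.17), ABCG1 (-0.26), NLRC5 (0.27), PSMB9 (0.22), IRF9 (0.47), LAMP3 (0.47), COL6A1 (0.21), PARD6B (0.31) and IL1RL1 (-0.09). They were also found for LLGL2 (0.15), ST14 (0.25), CA13 (0.71), TNFSF10 (0.50), FANCC (-0.35), CDC25A (0.20) and NAV1 (0.32).

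Many of these changes differed from those in H1693, by the test of the difference between the 2 lines' changes. Over all genes, 3577 (22.1%) differed, 2040 (12.6%) with the more positive and 1537 (9.48%) with the more negative change in H1993. Of the 479 genes that passed the threshold in H1993 with at least a 2-fold change, 257 passed in H1693 with the same sign, 36 with the opposite sign and 186 did not pass there. These 479 were chosen by their size in H1993, which favours a difference, and 396 of them differed between the lines.

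Microtubule genes that differed between the lines did so mostly in the positive direction. TUBA1A changed by 2.39 in H1993 and by 0.00 in H1693, TUBB2A by 1.58 and -0.04, TUBB3 by 0.85 and -0.35, and TUBB6 by 0.92 and -0.58. Of the 31 tested genes of the tubulin list, enzymes included, the difference was positive by limma for 8 and negative for 0 (3 at an unadjusted p under 0.05). TPPP changed by 2.55 and 0.20 and MAP2 by 2.42 and 0.42. Among 39 plus-end and severing proteins 13 differences were positive and 1 was negative, with FIGN at 0.95 and -0.03. CLIP4, in contrast, changed by 0.93 in H1993 and 0.99 in H1693, and its difference did not pass (limma, adjusted p = 0.669).

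Of 70 squamous genes tested, 14 gave positive and 5 negative differences, where 12.6% and 9.48% of all genes did. IVL changed by 2.12 in H1993 and -0.28 in H1693, SPRR1B by 1.85 and -0.12 and SPRR1A by 1.76 and -0.56. SPINK6 fell by 3.03 in H1993 and changed by -0.02 in H1693, a difference of -3.01. Of 36 adherens junction, desmosome and gap junction genes, 11 gave positive and 2 negative differences, and of 31 tight junction genes 8 and 6. CGN differed by 1.96 and GJA1 by 1.88. CDH1, in contrast, changed by 0.85 and 0.72, a difference of 0.13 that did not pass (adjusted p = 0.415). For 56 cytokines the counts were 7 and 3, a positive share close to that of all genes, with IL1A at a difference of 1.83. For 38 NF-kB genes they were 15 and 2, with C3 changing by 1.73 in H1993 and -0.55 in H1693.

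Of 59 interferon-stimulated genes, 22 gave positive and 5 negative differences, the latter including LAMP3, which rose by 1.56 in H1993 and by 2.50 in H1693. OAS1 fell by 0.53 in H1993 and rose by 1.53 in H1693. Mitosis genes fell in both lines, with a median of -0.55 in H1993 and -0.92 in H1693. Among these 51 genes 27 differences were positive, which here means a smaller fall in H1993, against 1 negative. The 50 replication genes gave 39 positive and 0 negative differences by limma, also at an unadjusted p under 0.05, with medians of -0.29 and -0.84. Histone genes turned: of 46, 19 fell and 2 rose in H1993, 1 fell and 20 rose in H1693, and 27 differences were negative. The 39 genes of the unfolded protein and ATF4 responses had 19 negative differences and 1 positive, with a median of 0.46 in H1693 against -0.03 in H1993. The 8 genes with the smallest p in the difference included FGFBP1, a carrier of fibroblast growth factors, which rose by 0.64 in H1993 and fell by 2.76 in H1693. AMIGO2 changed by 0.10 in H1993 (adjusted p = 0.37) and by 2.71 in H1693, and TMEM139 by -0.86 and 2.07.

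**Figure D5:**
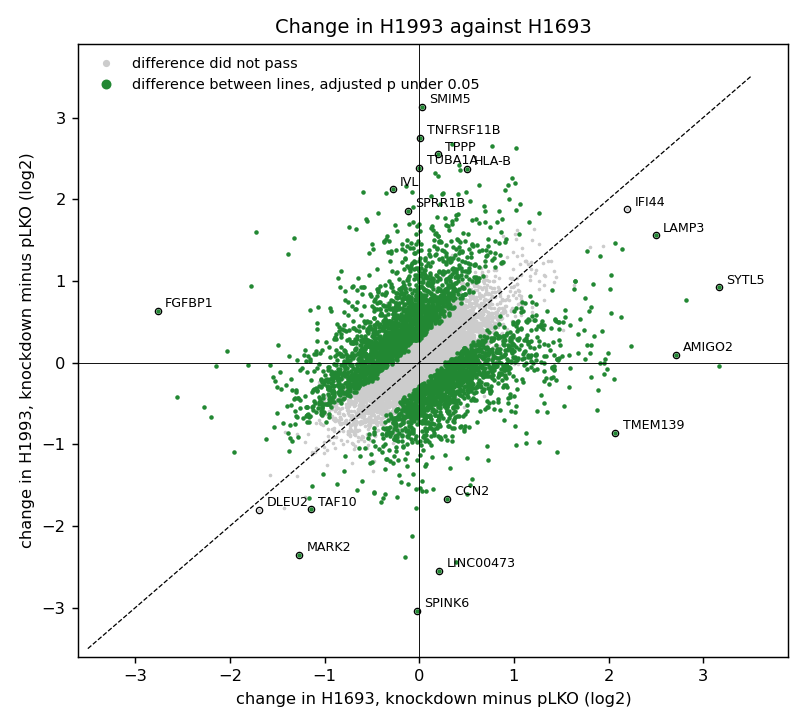
Change after MARK2 knockdown in H1993 (log2, y axis) against the change in H1693 (log2, x axis), with 1 point per tested gene, green where the difference between the lines passed at an adjusted p under 0.05, and equal changes on the dashed line. TUBA1A (2.39 against 0.00) lies high near 0 on the x axis, SPINK6 (-3.03 against -0.02) lies low, and DLEU2 (-1.80 against -1.69) lies close to the dashed line.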

How the data were processed

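Total RNA of 12 samples was measured on PrimeView arrays. Per the submitters' processing notes the authors made the deposited log2 values with RMA in Affymetrix Expression Console (the sources used here do not state versions). The method removes background, equalises array distributions and summarises probes, so differences of dim genes are compressed. No detection calls were used.

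Of 49395 probe sets, 44988 with 1 gene symbol were used (1832 had several, 2569 none), and 44961 matched a RefSeq gene ID (GRCh38.p14). They represent 18132 genes, each by the probe set with the highest mean over all 12 arrays. Of these genes, 16205 reached a log2 signal of 5 on at least 2 of the 12 arrays. A model with 6 group means over all 12 arrays was fitted with limma 3.58.1 in R 4.3.3 (eBayes, 6 residual degrees of freedom, prior 3.52), two-sided, with Benjamini-Hochberg adjustment and a threshold of 0.05. The number of arrays limits the precision. Named genes are the MARK genes, the 15 largest rises and falls, up to 6 members of each of 33 lists and the 8 leading differences from H1693; others were chosen after their values were seen. Members, lists and tests were chosen with earlier results of these data known. The fit was tested on simulated data.

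Alternatives were other sets of arrays, quantile normalisation, median centring, other filters and probe set rules, eBayes with trend, a replicate block and leaving out each array.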

Additional observations from a re-analysis of the deposited data

Results flagged for a closer look

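Of 76 named genes compared between the lines, 60 differed between H1993 and H1693 by the test of the difference itself (limma, adjusted p under 0.05). Over all genes tested 22.1% differed. The 76 include the 8 genes with the smallest p in this difference and the genes with the largest changes in H1993, and MARK2, whose fall was known when the comparison was chosen, so the count of 60 was partly fixed by the selection. Each value below is the change in H1993 minus the change in H1693 (log2), and 45 are positive and 15 negative.

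Among the leading rises and differences, FGFBP1 had 3.39, SMIM5 3.10, TNFRSF11B 2.74, HIP1 2.67, RGS17 2.42, NOL4L 2.33, SULT2B1 2.31, TMPRSS11E 2.16 and HEPACAM2 2.08. Further values were 1.93 for SNN, 1.89 for PGM2L1, 1.87 for HLA-B, 1.60 for SLC40A1, 1.55 for CYP1A1, 1.27 for NECTIN4 and 1.18 for STEAP4. HIP1 rose by 2.08 in H1993 with probe sets from 0.01.

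For tubulins and other microtubule genes the values were 2.39 for TUBA1A, 2.35 for TPPP, 2.00 for MAP2, 1.61 for TUBB2A, 1.50 for TUBB6, 1.20 for TUBB3, 1.15 for TPPP3, 0.97 for FIGN, 0.69 for MAPRE2, 0.53 for DST, 0.52 for NAV1 and -1.43 for EML2. For squamous genes they were 2.40 for IVL, 2.31 for SPRR1A, 1.97 for SPRR1B, 1.95 for SPRR2D and 1.26 for S100A9. Junction genes had 1.96 (CGN), 1.88 (GJA1), 1.23 (NECTIN2), 1.15 (DSC2), 0.90 (TJP3), 0.80 (PPL), 0.63 (LSR) and 0.47 (CLDN23). Cytokine genes had 1.83 (IL1A), 1.40 (IFNE), 1.20 (IL1B), 1.10 (TNFSF10) and 0.85 (CXCL16).

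Negative values were -3.01 for SPINK6, -2.93 for TMEM139, -2.83 for SPINK7, -2.76 for LINC00473, -2.62 for AMIGO2, -2.23 for H2AC16, -2.05 for PPP1R3C and -1.97 for CCN2. ESX1 had -1.75, MIG7 -1.30, ALPP -1.27, MARK2 -1.08, TAF10 -0.65 and UTP18 -0.49.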

How the results depend on the processing

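Total counts of genes past the threshold, over all genes tested, stayed within 1.5 times under every alternative run: 5418 genes became 4153 to 4346 when 1 array was left out, 4778 in a fit on the 4 H1993 arrays and 5934 on 8 arrays. The difference from H1693 (3577 genes) gave 2496 to 2822 when 1 array was left out, and the MARK2 change gave -2.41 to -2.29. Of 206 named genes past the threshold, 191 kept direction and call under all 14 alternatives. MARK1 (-0.04) turned to 0.12 with the mean of all probe sets and ranged from -0.089 to 0.016 when 1 array was left out, and MARK4 (0.04) turned to -0.018 under quantile normalisation and -0.031 under median centring. Of 66 counts of list members that rose or fell, 26 moved under at least 1 alternative, that is by more than 1.5 times or to or from 0. Counts of rises as well as falls were among them, in long lists as well as short ones. Adherens, desmosome and gap junction falls were 2 under quantile normalisation, median centring and the mean of all probe sets (0 as reported), and tight junction falls 4 under median centring. Leaving out 1 array gave 0 to 2 tight junction, 2 to 4 squamous, 0 to 2 cytokine and 4 to 9 plus-end falls. The causes were not tested. With the replicate number as a block, 4834 genes passed, 2855 differed from H1693, and tight junction falls numbered 1. Same-numbered arrays correlated in their deviations at 0.29 in H1993, -0.18 in H1693 and -0.11 in H1650. Whether same-numbered H1993 arrays share a culture or batch was not tested. Signals near the background limit dim genes such as MAP2, IL1A and SPINK7.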
